A study of Arabidopsis thaliana with 434 samples.

Results

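ANAC050 (AT3G10480) and ANAC052 (AT3G10490) are 2 of the 49 NAC genes counted in this series, and they lie next to each other on Arabidopsis chromosome 3, with ANAC053 (AT3G10500) as the following locus. The pair was chosen by its locus names and with measured counts of these same samples in view, above all the counts of both genes in the lines named after them. Those counts are therefore given as a description with no test.

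NAC proteins are plant-specific transcription factors that bind DNA through a conserved N-terminal domain. ANAC050 and ANAC052 are close paralogues. Their proteins are known to bind JMJ14, a demethylase of histone H3 lysine 4, and to act with it in repressing genes, among them genes that promote flowering. ANAC053, also named NTL4, carries a membrane anchor and acts in drought-induced leaf senescence and in the response to proteasome stress.

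Leaves of Arabidopsis thaliana were collected at ages of 14, 18, 22 and 26 d, and their transcripts were counted on a NanoString nCounter, an instrument that reads barcoded probes hybridised to RNA with no amplification step. All plants were of the ecotype Columbia, grown at 16 h of light, and each line carries a T-DNA insertion from the SALK, SAIL or GABI-KAT collections. Wild type (Col) was represented by 10 samples of 14 d and by 8 of each of the other ages. The line anac092 was represented by 4 samples per age, and 48 lines, among them those labelled anac050, anac052 and anac053, by 2. Titles also give a letter (A, B, C or D) followed by a number. Col was sampled under every letter, anac050 and anac053 under A and anac052 under B. The labels name no insertion site or probe position and no second allele of a line, and the position of a probe relative to an insertion decides what its count says about a line. Nor do they state that 2 samples of a group are different plants, so a p-value here measures the spread between samples, which may be technical.

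A pair of 18 d libraries went against their labels and was left out, which leaves 432 of 434 samples. Of these, anac053 A1 by its label contained ANAC053 at 212 normalised counts and anac055 A1 by its label at 5.35, against 158 to 324 in Col. A normalised count is the raw count relative to that sample's mean over 4 reference genes (ACT2, ACT7, TUB2 and UBQ10). Total counts ran from 31613 to 687229 with a median of 225791. The shallowest libraries used for the lines of the trio were anac053 A1 at 22 d (31613 counts) and anac050 A1 at 22 d (46527 counts). Col held between 303 and 2255 raw counts of either member in every sample, far above the negative control probes, whose mean was 5.19.

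In the wild-type leaf, relative to the reference genes, ANAC052 transcript rose with age and was called at 22 and 26 d, while ANAC050 passed the test at no age; the directions differed with TMM and DESeq2, as given further on. ANAC050 ran from 648 to 818 normalised counts at 14 d (median 742, mean 733 ± 50.1 SD, n = 10). It ran from 647 to 1044 at 18 d (median 732, mean 770 ± 130, n = 8) and from 636 to 911 at 22 d (median 768, mean 762 ± 93.0, n = 8). At 26 d it ran from 748 to 901 (median 848, mean 831 ± 54.1, n = 8). Samples of every later age overlapped those of 14 d. The log2 changes from 14 d were 0.05 (SE 0.11) at 18 d, 0.04 (SE 0.11) at 22 d and 0.17 (SE 0.11) at 26 d, with adjusted p = 0.77, 0.74 and 0.11 in the quasi-likelihood test of edgeR, adjusted by Benjamini-Hochberg over 47 genes.

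ANAC052 ran from 540 to 748 normalised counts at 14 d (median 608, mean 610 ± 58.6, n = 10) and from 533 to 780 at 18 d (median 712, mean 678 ± 90.8, n = 8). It ran from 698 to 1248 at 22 d (median 835, mean 896 ± 173, n = 8) and from 951 to 1130 at 26 d (median 1085, mean 1066 ± 60.9, n = 8). All 8 samples of 26 d lay above all 10 of 14 d and all 8 of 18 d, and 7 of the 8 samples of 22 d lay above all of 14 d, while 18 and 14 d overlapped. The log2 change was 0.16 at 18 d (SE 0.08, adjusted p = 0.098), 0.55 at 22 d (SE 0.08, adjusted p = 5.2e-11) and 0.82 at 26 d (SE 0.08, adjusted p = 1.9e-20) by the same edgeR test. Within each letter the 26 d mean stood at 1.51 to 1.89 times the 14 d mean, whereas for ANAC050 it stood at 1.02 to 1.23 times. The rise at 18 d passed the test when Col B1 of 18 d (0.19, adjusted p = 0.047) or Col D1 of 18 d (0.21, adjusted p = 0.027) was left out.

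Most NAC transcripts moved in these comparisons, so a call is common. The same test called 18 of 47 genes (38.3%) at 18 d, 44 (93.6%) at 22 d and 46 (97.9%) at 26 d. ANAC050 was the 1 tested gene not called at 26 d, and its log2 change ranked 40 of 47 from the highest; that of ANAC052 ranked 28 of 47. The median change of all 47 genes was 0.14, 0.78 and 1.12 at 18, 22 and 26 d. At 26 d ANAC050 lay 0.95 below that median and ANAC052 0.31 below it.

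**Figure D1:**
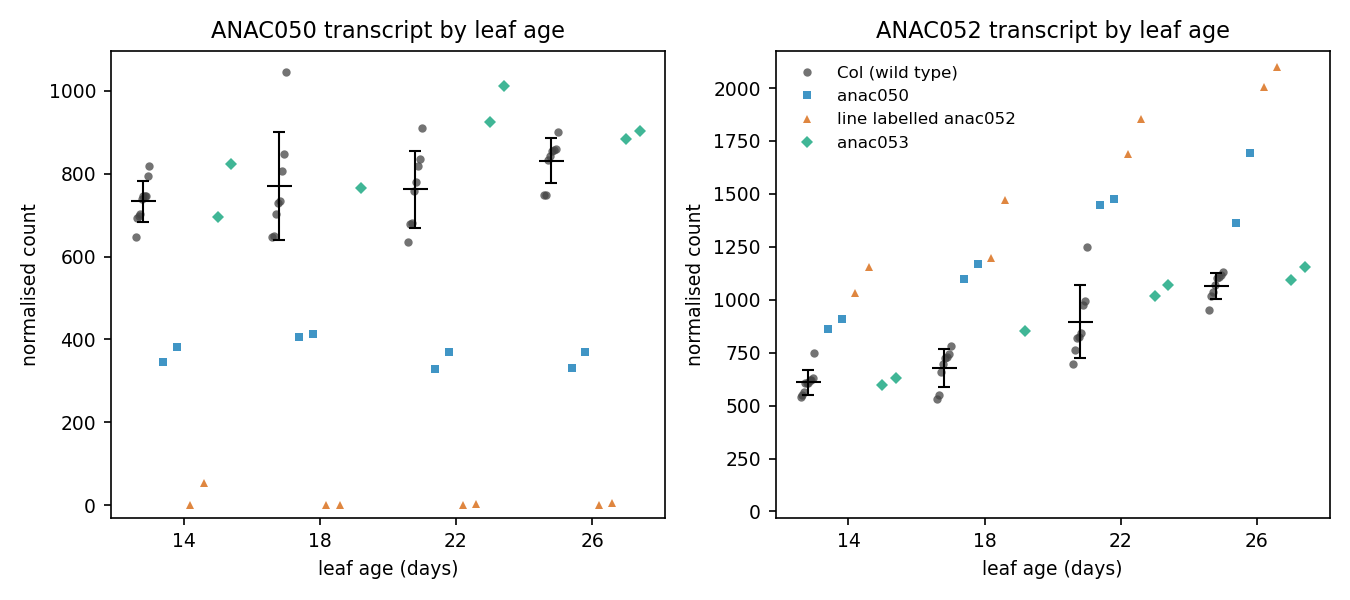
Normalised counts of ANAC050 (left) and ANAC052 (right) by leaf age in days, 1 point per sample, for Col, anac050, the line labelled anac052 and anac053; bars are the mean ± SD of Col. ANAC050 of Col stays between 636 and 1044 at all ages while ANAC052 of Col reaches 951 to 1130 at 26 d, and in the line labelled anac052 the ANAC050 points lie at the bottom of the panel and the ANAC052 points above all Col points.

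Direction with age depended on the scaling. The distance between both genes hardly can, since a scaling multiplies all counts of a sample by the same factor, which cancels. At 26 d ANAC050 changed by -0.66 with TMM scaling (adjusted p = 3.4e-08) and by -0.75 with DESeq2 (adjusted p = 4.3e-12), both of which scale on the NAC probes themselves. It changed by 0.41 with the references without UBQ10 (adjusted p = 0.00035). ANAC052 changed by 0.00042 with TMM (adjusted p = 0.996), by -0.10 with DESeq2 (adjusted p = 0.33) and by 1.06 without UBQ10. The median of all genes at 26 d moved with them, by -0.83 with TMM, by -0.94 with DESeq2 and by 0.21 without UBQ10. The log2 change of ANAC052 less that of ANAC050 was 0.65 to 0.66 at 26 d, 0.51 to 0.52 at 22 d and 0.11 to 0.12 at 18 d under all 6 scalings compared. This sameness follows from the cancelling and adds no support for the difference.

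**Figure D2:**
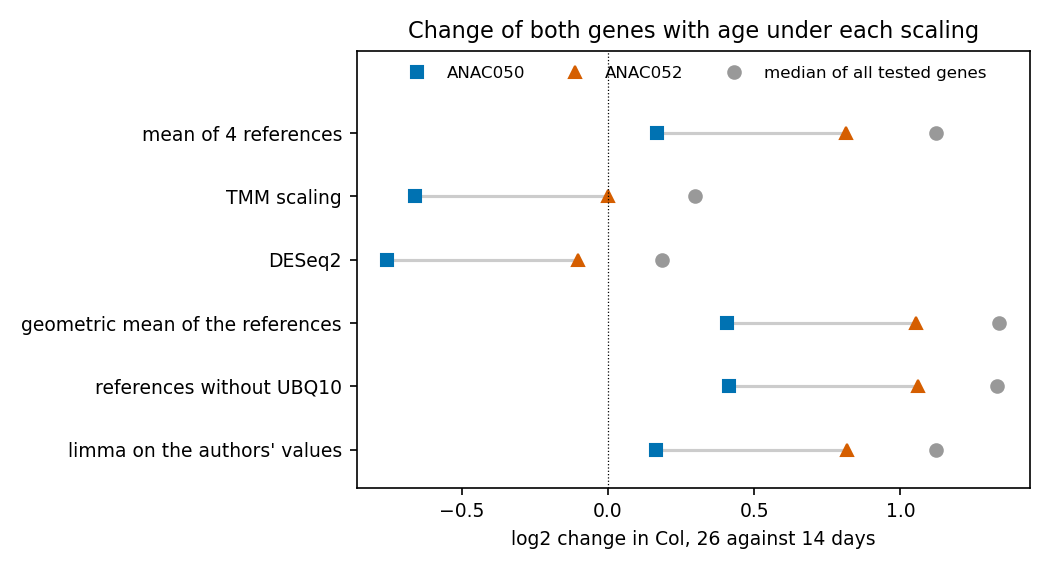
Log2 change in Col from 14 to 26 d (horizontal axis) for ANAC050, ANAC052 and the median of the 47 tested genes under 6 scalings (vertical axis), with a grey line joining both genes. The points shift together from 1 scaling to the next. The joining line keeps a length of 0.65 to 0.66, since a factor shared by both genes of a sample cancels in it.

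The ratio of both raw counts within a sample needs no reference gene, and its change between samples can be read although the level itself depends on both probes. The log2 ratio of ANAC052 to ANAC050 in Col ran from -0.45 to -0.09 at 14 d (median -0.25, mean -0.27 ± 0.13 SD, n = 10) and from -0.52 to 0.06 at 18 d (median -0.19, mean -0.18 ± 0.19, n = 8). It ran from -0.02 to 0.45 at 22 d (median 0.27, mean 0.22 ± 0.17, n = 8) and from 0.30 to 0.44 at 26 d (median 0.36, mean 0.36 ± 0.05, n = 8). All 8 samples of 22 d and all 8 of 26 d lay above all 10 of 14 d, and the ages 14 and 18 d overlapped, as did 22 and 26 d. The ratio was higher at 26 than at 14 d under each letter, by 0.55 (A), 0.57 (B), 0.74 (C) and 0.74 (D). In the 47 lines other than anac050 and the line labelled anac052, the mean log2 ratio was higher at 26 than at 14 d in 47 of 47, by 0.32 to 0.92 with a median of 0.60.

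**Figure D3:**
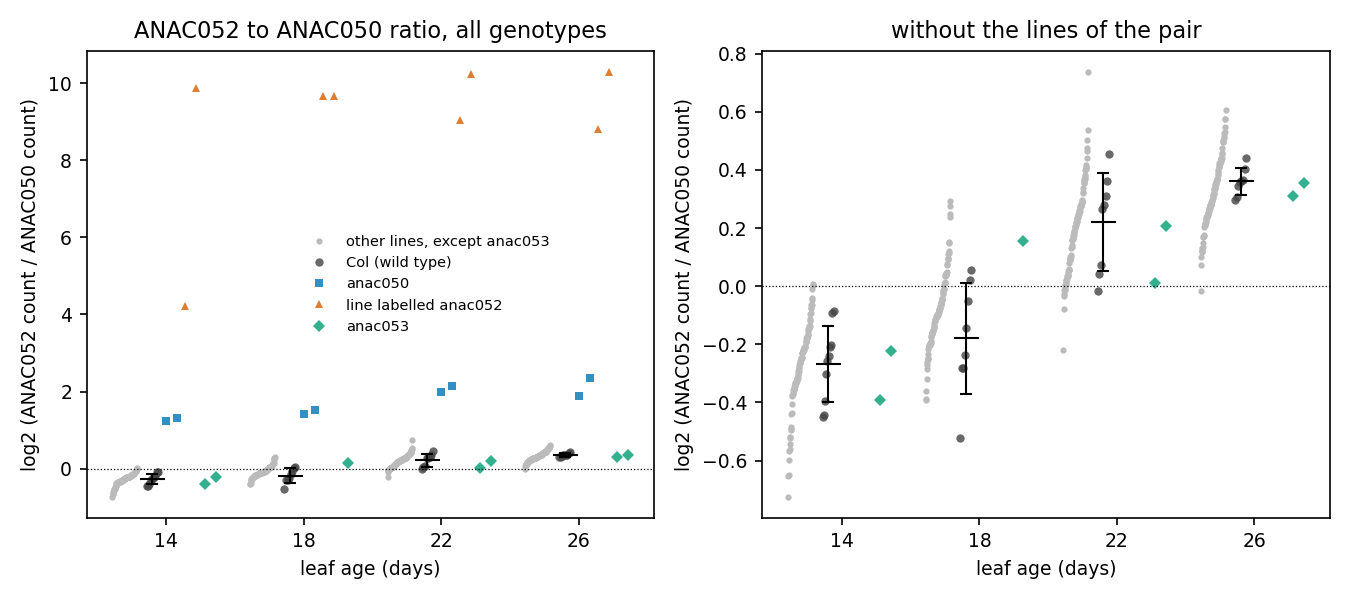
Log2 ratio of the ANAC052 to the ANAC050 raw count by leaf age in days, 1 point per sample, with all genotypes on the left and without anac050 and the line labelled anac052 on the right; bars are the mean ± SD of Col. Col goes from a mean of -0.27 at 14 d to 0.36 at 26 d and the other lines go along with it, while anac050 lies between 1.25 and 2.35 and the line labelled anac052 between 4.23 and 10.3.

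The line anac050 kept part of its ANAC050 count at every age and held more ANAC052 than Col. Its samples had 382 and 346 normalised ANAC050 counts at 14 d and 406 and 412 at 18 d. The later pairs were 370 and 328 (22 d) and 371 and 331 (26 d). All 8 lay below every Col sample of their age. Relative to Col of the same letter the line held 51.9% of ANAC050 at 14 d (exact 95% interval 49.2 to 54.8), 54.6% at 18 d (48.5 to 61.3), 38.8% at 22 d (35.0 to 43.0) and 41.3% at 26 d (37.5 to 45.5). These intervals, and those below, are of ratios of summed counts and cover counting error only.

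ANAC052 in anac050 stood at 907 and 863 normalised counts at 14 d and 1170 and 1096 at 18 d. The later pairs were 1474 and 1448 (22 d) and 1364 and 1691 (26 d). All 8 samples lay above every Col sample of their age. The share of Col of the same letter was 144% at 14 d (exact 95% interval 138 to 150), 151% at 18 d (139 to 164), 132% at 22 d (124 to 140) and 136% at 26 d (128 to 144). The shallow 22 d library, with 65 raw ANAC050 and 259 raw ANAC052 counts, gave 370 and 1474 normalised counts, against 328 and 1448 in its partner with 426 and 1881 raw counts. Leaf RNA was measured in bulk, so less transcript per cell and fewer cells that hold it cannot be told apart in any of these values.

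In the line labelled anac052 the count of the neighbour ANAC050 lay at background in 7 of 8 samples, and the count of the named gene was above that of Col. Its ANAC050 raw counts were 1 and 77 at 14 d and 1 in each sample of 18 and 22 d, followed by 1 and 5 (26 d). Apart from the 77 counts of the library B2 at 14 d (55.04 normalised), each was lower than the average negative control probe of its own library, which was 3.13 to 6.75, and 1 is the lowest count that the tables hold. The summed counts stood at 4.37% of Col of the same letter at 14 d (exact 95% interval 3.43 to 5.49), 0.239% at 18 d (0.0289 to 0.867), 0.304% at 22 d (0.0367 to 1.10) and 0.435% at 26 d (0.160 to 0.950). The 14 d value came from B2, since its partner B1 held 1 count.

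ANAC052 in the line labelled anac052 stood at 1154 and 1032 normalised counts at 14 d and 1195 and 1472 at 18 d. The later pairs were 1688 and 1852 (22 d) and 2003 and 2098 (26 d). All 8 samples lay above every Col sample of their age. The share of Col of the same letter was 157% at 14 d (exact 95% interval 147 to 168), 224% at 18 d (206 to 244), 215% at 22 d (200 to 231) and 203% at 26 d (192 to 215). The target named by the label was thus higher than in Col, not lower. Every value here follows the probe names and line labels as deposited. Whether a probe name or a label was exchanged, or the insertion lies outside the stretch that the probe covers, was not tested. In anac050 too, ANAC050 was below Col of the same letter (38.8 to 54.6%) and ANAC052 above it (132 to 151%). An exchange of probe names would also exchange ANAC050 and ANAC052 in all other values.

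Side by side, both lines held less ANAC050 and more ANAC052 than Col, in values that were in view when the pair was chosen. At 26 d the line with 41.3% of ANAC050 held 136% of ANAC052, and the line with 0.435% of ANAC050 held 203%. At 14 d the values were 51.9 and 144% against 4.37 and 157%. They were 54.6 and 151% against 0.239 and 224% at 18 d, and 38.8 and 132% against 0.304 and 215% at 22 d. Within anac050, relative to Col of the same letter, the order over ages ran the other way, and ages with less ANAC050 also held less ANAC052. Relative to all Col samples this order did not hold. There ANAC050 stood at 49.7, 53.1, 45.8 and 42.3% at 14, 18, 22 and 26 d. ANAC052 stood at 145, 167, 163 and 143%. Both shares rest on the same reference counts, so they are not independent. The log2 ratio of ANAC052 to ANAC050 was 1.25 to 1.32 in anac050 at 14 d and 1.88 to 2.35 at 26 d, and 4.23 to 9.88 and 8.82 to 10.3 in the line labelled anac052, where 7 of 8 values rest on an ANAC050 count at background. Over 13 settings of the fit and 4 ages (52 values), the log2 change of ANAC052 against Col was 0.12 to 0.74 in anac050 and 0.70 to 1.13 in the line labelled anac052, and that of ANAC050 in anac050 was -1.66 to -0.86. All 52 values come from the same samples of these lines. The lowest value for ANAC052 in anac050 was that of DESeq2 at 26 d, against 0.46 with the reference mean.

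The neighbour on the far side of the pair was measured in the same lines. ANAC053 in anac050 stood at 233 and 271 normalised counts at 14 d and 215 and 200 at 18 d. The later pairs were 524 and 554 (22 d) and 432 and 828 (26 d). In the line labelled anac052 it stood at 275 and 226, 228 and 274, 341 and 410, and 403 and 764 at the same ages. Both lines overlapped Col at all 4 ages, where ANAC053 had a mean of 242 ± 107 at 14 d (SD, n = 10) and 510 ± 150 at 26 d (SD, n = 8). The log2 changes ran from -0.41 (SE 0.38) to 0.31 (SE 0.38), and 0 of 8 passed the edgeR test, 0 of 8 had an unadjusted p under 0.05, and DESeq2 and limma also called 0. With SEs of 0.35 to 0.40, a change as large as that of ANAC052 in anac050 was not detectable for ANAC053.

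In anac053, conversely, ANAC053 held 6.32 and 15.0 normalised counts at 14 d, 2.07 in the 1 library kept at 18 d, 17.0 and 15.1 (22 d) and 13.3 and 7.34 (26 d). ANAC050 there stood at 824 and 695, then 764, then 1011 and 925, and then 883 and 902 normalised counts at the successive ages. ANAC052 stood at 629 and 596, then 851, then 1019 and 1069, and then 1094 and 1154. Only the ANAC050 pair of 22 d and the single ANAC052 value of 18 d lay above all Col samples of their age. The log2 changes were -0.02 to 0.22 for ANAC050 and -0.09 to 0.23 for ANAC052, with SEs of 0.14 to 0.26. By edgeR 0 of 8 passed the test and 0 of 8 had an unadjusted p under 0.05, and DESeq2 and limma also called 0. The library anac053 A1 of 22 d rests on 119 raw counts of ANAC050 and 120 of ANAC052.

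Of the other 45 tested genes, 1 was called in the lines of the pair. By edgeR, with adjustment over 2256 pairs of line and gene at each age, 0 of 45 passed in anac050 at each age (2, 1, 1 and 8 had an unadjusted p under 0.05 at 14, 18, 22 and 26 d). In the line labelled anac052, 0 passed at 14, 18 and 22 d and 1 at 26 d (5, 2, 0 and 5 with an unadjusted p under 0.05). DESeq2 and limma made the same 1 call and no other. Over all lines the same rule called 32 of 2256 pairs at 14 d (1.42%), 5 at 18 d (0.222%), 3 at 22 d (0.133%) and 8 at 26 d (0.355%).

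The 1 call was ANAC010, also named SND3, a regulator of secondary walls in xylem, which is named here after its value was seen. It held 28.8 and 107 normalised counts (18 and 115 raw) in the line labelled anac052 at 26 d against 5.26 to 11.5 in the 8 Col samples, which lay near the negative probes, a log2 change of 3.17 (SE 0.57, edgeR adjusted p = 7.0e-05). Without the second sample of every line the change was 2.16, and with each age fitted alone it was 3.15 (edgeR adjusted p = 0.082, not called). In anac050 at 26 d it held 13.7 and 39.3 normalised counts, a change of 2.15 (SE 0.61, adjusted p = 0.098). There it passed the edgeR test with the geometric reference mean (2.30, adjusted p = 0.037), without UBQ10 (2.28, adjusted p = 0.044) and without the letter covariate (1.67, adjusted p = 0.042). Without the first sample of every line the change there was 2.90. Whether the change differed between both lines was not tested. Of the xylem list (ANAC007, ANAC010, ANAC076, ANAC101 and ANAC104), 1 of 4 tested genes was called in the line labelled anac052 at 26 d and 0 of 4 in anac050. The summed level of the list was 417 to 843 in the former and 610 to 1237 in the latter, against 348 to 896 in Col. In both samples of the line labelled anac052, ANAC076 and ANAC101 had at most 13 raw counts. The phloem genes ANAC045 and ANAC086 lay at or below that in both lines. The part of vascular tissue in the ANAC010 value was not tested.

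Across the 47 other lines few values of the pair were called, and calls were few over all genes too. The share over all genes was 1.42% of 2256 pairs at 14 d, 0.222% at 18 d, 0.133% at 22 d and 0.355% at 26 d. ANAC050 was called in 0 of 188 pairs of line and age by edgeR, with 3 at an unadjusted p under 0.05 and 0 calls by DESeq2 or limma. Line means ran from 556 to 837 normalised counts at 14 d, 647 to 953 at 18 d, 675 to 1337 at 22 d and 705 to 1015 at 26 d. The highest, anac029 at 22 d, is named for that value and rests on 1 of its samples, with 858 and 1817 counts (log2 change 0.68, SE 0.21, adjusted p = 0.22). ANAC029, also named NAP, promotes leaf senescence.

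ANAC052 was called in 6 of 188 pairs, with 15 at an unadjusted p under 0.05. All 6 were lower, at 14 d and in lines of letter B, and over all genes and lines 23 of 2256 pairs (1.02%) were called lower at that age. The largest fall was in anac010, with 411 and 424 normalised counts against 622 and 748 in Col of letter B (log2 change -0.68, SE 0.15, edgeR adjusted p = 0.0034). In anac018 the counts were 385 and 488 (-0.61, SE 0.15, adjusted p = 0.013) and in anac014 424 and 455 (-0.61, SE 0.15, adjusted p = 0.013). The other 3 changed by -0.59 to -0.56. Of the genes these 3 lines are named after, ANAC014 changed by -4.42 in anac014, ANAC018 by -1.81 in anac018 and ANAC010 by -1.38 (SE 0.60) in anac010 at 14 d.

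These calls moved with 1 wild-type library and with the scaling. Of 17 lines of letter B, 15 lay below Col at 14 d for ANAC052 (median log2 change -0.45) and 15 for ANAC050 (median -0.28), whereas 7 of 16 lines of letter A did for ANAC052. In sample order, the letter B lines from anac001 to anac046 changed by -0.68 to -0.42 for ANAC052. Those from anac047 to anac104, without the line labelled anac052, changed by -0.14 to 0.05. The first samples of the former run held 87608 to 140435 total counts, and those of the latter 174980 to 254966. The second samples held 227835 to 362577 and 181867 to 368817. ANAC052 in these second samples ran from 414 to 531 normalised counts in the former run and from 501 to 690 in the latter. All 6 calls fell in the former run, and what this order marks was not tested. Col B1 of 14 d held 748 ANAC052 counts and the next highest Col sample 632. Without that library 0 of the 6 calls passed (anac010 -0.58, adjusted p = 0.099; anac018 -0.52, adjusted p = 0.26; anac014 -0.51, adjusted p = 0.27), and the calls over all genes at 14 d fell from 32 to 10. With TMM, with DESeq2 and without UBQ10 the calls of ANAC052 were also 0. At 18, 22 and 26 d 0 of 47 lines were called by edgeR for ANAC052, with 4, 0 and 1 at an unadjusted p under 0.05, and 0 by DESeq2 and limma at each of these ages. At 14 d limma on the authors' values called 7.

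**Figure D4:**
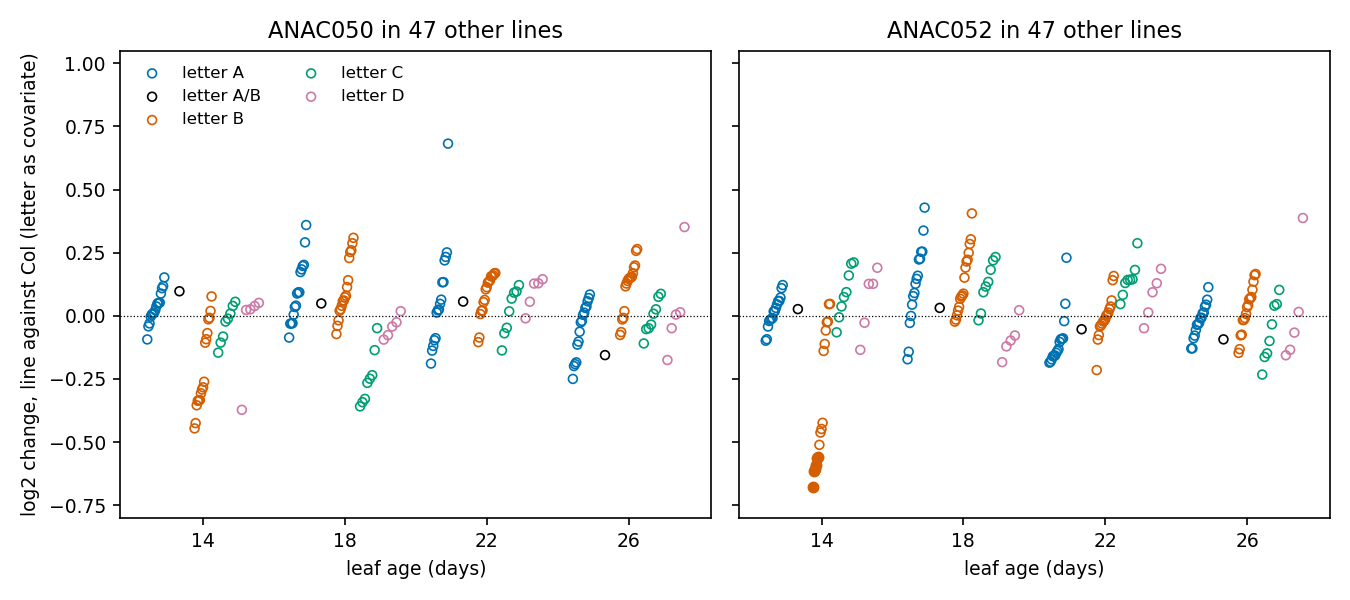
Log2 change against Col, with the title letter as covariate, of ANAC050 (left) and ANAC052 (right) in the 47 other lines by leaf age in days, 1 point per line, coloured by letter (anac092 stands under A and B); filled points passed the edgeR test. The 6 filled points are all ANAC052 at 14 d in lines of letter B, and most open points lie close to 0.

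The change of a line effect between 14 and 26 d was called in 0 of 47 lines for either member by edgeR, with 1 line for ANAC050 and 8 for ANAC052 at an unadjusted p under 0.05 and 0 by DESeq2 and limma. Over all pairs 3 of 2256 (0.133%) were called. The changes ran from -0.34 to 0.57 for ANAC050 and from -0.37 to 0.66 for ANAC052.

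Both genes were among the steadiest of the probe set. The SD of log2 values between Col samples of 1 age was 0.16 for ANAC050 and 0.18 for ANAC052, ranks 2 and 3 from the lowest of 47 genes, against a median of 0.43. The root mean square of the effects of lines was 0.16 for ANAC050 (rank 3) and 0.18 for ANAC052 (rank 7), against a median of 0.37. Both had mean raw counts over 700 (756.5 and 817.5), and counting error is smaller at such counts than in genes near background.

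By its profile over lines and ages, each member was the gene most like the other, with a root mean square difference of 0.15 over 188 pairs of line and age. ANAC078 (0.16), which acts with ANAC053 in the response to proteasome stress, and ANAC018 (0.17), a regulator of seed development, followed for ANAC050. ANAC018 (0.17) and NTL9 (0.19), a calmodulin-binding NAC, followed for ANAC052. Lines share the Col samples of their letter, and genes that vary little are near each other by this measure. By the age profile of Col over the changes at 18, 22 and 26 d, ANAC050 was nearest to ANAC078 (0.16), ANAC096 (0.24) and ANAC017 (0.28), the last a membrane-bound factor of mitochondrial signalling. ANAC052 was nearest to ANAC018 (0.13), ANAC002 (0.15), also named ATAF1, and ANAC001 (0.16). The age profiles of both members differed by 0.48. By this measure ANAC052 was in place 11 among the genes nearest to ANAC050, and ANAC050 in place 20 among those nearest to ANAC052.

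Of the related NAC genes ANAC053, ANAC078 and ANAC082, 0 of 3 were called in Col at 18 d (0 at an unadjusted p under 0.05, and 0 by DESeq2 and limma), and 3 of 3 rose at 22 and 26 d relative to the references, with median log2 changes of 0.01, 0.38 and 0.60 against 0.14, 0.78 and 1.12 over all genes. With TMM 0 of them were called higher and 2 lower at 22 d, and 1 higher and 2 lower at 26 d. With DESeq2 0 were called higher and 2 lower at both ages. ANAC053 itself changed by -0.01, 0.82 and 1.21 at the successive ages, more than either member at 22 and 26 d. As to other cells of the leaf, of the tested xylem genes 1 rose (0 with TMM and DESeq2) and 3 fell in Col at 26 d and the summed level of the list went from 303 to 605 at 14 d to 348 to 896. The 1 tested phloem gene fell, and the summed phloem level went from 51.2 to 90.0 to 5.08 to 18.1. Their part in the wild-type values of the pair was not tested.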

How the data were processed

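Raw counts per probe were deposited by the authors as 1 table per leaf age, per the labels' descriptions. The authors also deposited log2 values, with no account of their making in the labels. The 67 probes hold 49 NAC genes, 4 references, 8 negative and 6 positive controls. All 53 gene probes matched a locus of a RefSeq table (TAIR10.1), used only for names and neighbours. Per the labels' protocols, 100 ng of RNA entered each reaction.

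A quasi-likelihood model of 432 samples (edgeR 4.0.16, R 4.3.3) had 1 mean for each genotype at each age, the title letter within age as covariate and the arithmetic mean of the references as offset. UBQ10 made up 80.6% of that mean. Tested were 47 genes with a mean above that of the negative probes plus 2 SD (12.6 counts). Benjamini-Hochberg adjustment ran over 47 genes or over 2256 pairs of line and gene, with a threshold of 0.05. The fit was also run on counts simulated with its own dispersions and independent samples, and the outcome is not used here. Such counts cannot show the effect of samples that deviate together. No 2 of 345 sample pairs within groups agreed within sampling noise.

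Alternatives were TMM, DESeq2 1.42.0 (fitted per age or pair of ages, since the joint fit did not converge), limma 3.58.1 on the authors' log2 values, other reference means, filters, covariates and samples. Members, lists and tests were chosen with earlier results of these data known. Named were both members, ANAC053, the references, the 3 largest falls and rises among called lines, the genes nearest in profile and the listed relatives; genes or lines named otherwise are marked. No sequence is printed.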

Additional observations from a re-analysis of the deposited data

Results flagged for a closer look

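The spread within groups of 4 to 10 samples was examined in 24 checks by Dixon's test, each of 1 measure in 1 group. Chance alone passes this test in about 1 of 20 checks. In 2 groups a sample stood apart, both for ANAC052. At 14 d Col B1 held 748.4 normalised counts and the next highest Col sample 631.8, a gap of 0.559 of the whole range against a critical value of 0.466. At 18 d anac092 B1 held 616.5 normalised counts and the next lowest sample of that line 706.8, a gap of 0.842 of the range against a critical value of 0.829. The calls that move with Col B1 are given with the other lines above, and the cause of either value was not tested.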

How the results depend on the processing

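In Col, ANAC050 changed by -0.10, -0.54 and -0.66 at 18, 22 and 26 d with TMM and by -0.12, -0.60 and -0.75 with DESeq2, and by 0.41 at 26 d with the geometric reference mean and without UBQ10. ANAC052 changed by -0.0036, -0.093 and -0.10 with DESeq2, by -0.029 and 0.00042 at 22 and 26 d with TMM, and at 18 d by 0.22 with the geometric mean and 0.24 without UBQ10 (both called). TMM and DESeq2 scale on the NAC genes, whose median rose with age relative to the references. Whether the references themselves changed with age was not tested. Leaving out single samples gave 0.0076 to 0.08, 0.0094 to 0.07 and 0.13 to 0.19 for ANAC050 and 0.093 to 0.21, 0.51 to 0.59 and 0.79 to 0.84 for ANAC052.

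The calls of ANAC050 over other lines were 1 without the letter covariate and 0 to 1 with samples left out. Those of ANAC052 were 0 with TMM, DESeq2 or without UBQ10, 2 with the geometric mean, 3 without the letter and 0 to 7 with samples left out: 0 without the first sample of every line, 1 without the second and 0 without Col B1 of 14 d. ANAC052 in anac018 at 14 d was 0.020 with TMM and 0.0094 with DESeq2. The cause of these moves was not tested. ANAC053 in the lines of the pair, both members in anac053 and the changes of line effects between ages stayed at 0 calls under every alternative run. Leaving out libraries under 100000 counts, chosen after seeing the data, also gave 6 calls of ANAC052, but anac018 was not among them (-0.46, adjusted p = 0.38).

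Samples of the same number deviated together (r over 0.1) in 1037 of 1613 pairs of groups (r from -0.73 to 0.93, median 0.24). The labels do not say what a number marks and not every pair exceeded 0.1, so the numbers were not taken to pair samples. With a replicate block ANAC052 changed by 0.81 at 26 d (adjusted p = 5.0e-25) and had 9 calls over lines, and ANAC010 in anac050 at 26 d was called (2.11, adjusted p = 0.039). With the block, calls over all genes at 14 d went from 32 to 62; they were 19 with TMM, 16 with the geometric mean, 3 without UBQ10 and 10 without the letter. ANAC050 counts at background in the line labelled anac052 limit what its ratios can show.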
